A study of Mus musculus with 8 samples.

Results

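Interleukins and Toll-like receptors carry inflammatory signals between and into cells of the vessel wall. The genes described here are 10 such cytokine and innate receptor genes: Il6, Lif and Il33 among the ligands, Il1r1, Il1rl1, Il1rap, Il6st and Osmr among the cytokine receptors, and Tlr2 with its co-receptor Cd14. They were chosen by name, with earlier results of these data known. Every probe that the array's annotation assigns to one of them was taken. Of the 10 genes, 9 had a probe, 17 probes in all among 25697 on the array, and the array measured 16593 named genes. No probe named for Il1rl1, the receptor of interleukin-33, was found by symbol or gene identifier, and it is not analysed here.

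The cells were primary vascular smooth muscle cells from the carotid artery of male C57bl6 mice, either PMCA4 knockout or PMCA4 wild type. PMCA4 is a plasma membrane calcium pump, encoded by Atp2b4, that moves calcium out of the cell. All cells, of both genotypes, were synchronised by serum, then stimulated with serum plus the mitogen PDGF-BB, stained with Hoechst and flow sorted for early G1, and RNA was measured on Illumina bead arrays, 4 of knockout and 4 of wild-type cells. Neither the age of the mice nor the deleted part of Atp2b4 is given. Nothing states that the 4 samples of a genotype are from different animals or cultures, and the spread behind each p-value may therefore be technical.

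In the interleukin-6 family, the cytokine binds its own receptor chain and then the shared signal transducer gp130, encoded by Il6st. Leukaemia inhibitory factor (Lif) and, in the mouse, oncostatin M through its receptor chain Osmr use the same transducer, which activates JAK kinases and STAT3 and is restrained by SOCS proteins. Interleukin-1 and interleukin-33 bind Il1r1 and Il1rl1, and both receptors need the accessory chain Il1rap. Toll-like receptors share the MyD88, IRAK and TRAF6 cascade with the interleukin-1 receptors. Vascular smooth muscle cells are a known source of interleukin-6 in the injured or inflamed vessel.

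The 250 bases before the gene start are shown for Il6 and Lif, ligands that were higher in knockout, and for Tlr2, which was lower, so that the letters upstream of members with opposite differences can be compared. No window of Cd14, the other lower member, was searched, so the lower members are represented by Tlr2 alone. The sequences are from RefSeq on GRCm38.p6, 5′ to 3′ on the strand of the gene. They lie at chr5:30012864-30013113 on the plus strand for Il6, at chr11:4257318-4257567 on the plus strand for Lif and at chr3:83841609-83841858 on the minus strand for Tlr2. Capitals mark matches to 7 motifs searched on both strands: GGGA, any base, then TTTCC for NF-kappaB, TGANTCA for AP-1, TGACG for a CRE half-site, TTGCNCAA for C/EBP, TTCNNNGAA for STAT, GGAAAA for the NFAT core and TATAAA for a TATA box.
Il6: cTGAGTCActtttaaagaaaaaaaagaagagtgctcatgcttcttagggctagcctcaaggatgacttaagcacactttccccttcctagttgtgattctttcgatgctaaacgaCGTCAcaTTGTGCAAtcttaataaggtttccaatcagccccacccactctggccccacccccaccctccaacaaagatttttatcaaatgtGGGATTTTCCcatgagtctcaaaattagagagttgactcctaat
Lif: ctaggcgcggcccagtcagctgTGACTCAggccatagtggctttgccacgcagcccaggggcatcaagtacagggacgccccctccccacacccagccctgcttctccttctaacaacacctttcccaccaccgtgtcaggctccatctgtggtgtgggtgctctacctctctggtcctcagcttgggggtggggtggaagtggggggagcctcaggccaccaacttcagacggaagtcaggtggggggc
Tlr2: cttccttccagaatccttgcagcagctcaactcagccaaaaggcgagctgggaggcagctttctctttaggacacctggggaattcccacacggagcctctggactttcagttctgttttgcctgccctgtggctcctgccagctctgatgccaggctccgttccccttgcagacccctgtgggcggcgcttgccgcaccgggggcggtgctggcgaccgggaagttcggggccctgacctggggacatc

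The Il6 window matched 5 of the 7 motifs. From 5′ to 3′ these were AP-1 from -249 to -243, the CRE half-site from -135 to -131, C/EBP from -128 to -121 and NF-kappaB from -44 to -35, counted from the gene start, with the NFAT core lying inside the NF-kappaB match. The Lif window matched AP-1 only, from -228 to -222, and the Tlr2 window matched none. The Tlr2 window does hold gggaattccc, which has a C where the searched NF-kappaB letters have their last T. Looser forms of the motifs were not searched, so the difference between the Il6 and Tlr2 windows holds for the exact letters only. Among all 32851 windows of the table, 0.356% held the NF-kappaB letters, 6.75% AP-1, 17.8% the CRE half-site, 2.61% C/EBP, 7.02% STAT, 20.4% the NFAT core and 12.4% the TATA box. The window of Il1rap, the accessory chain that was also higher in knockout, and that of Il6st matched none of the 7. Each had a high CpG count, 30 in Il1rap and 26 in Il6st, against 3 in Il6 and a median of 6 over all windows. A match describes letters only.

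Il6, Lif and Il1rap were higher and Tlr2 and Cd14 were lower in knockout cells, each by more than 2-fold, while Il6st, Osmr and Il33 did not pass the test. All values below are log2 normalized intensities unless stated otherwise, a probe is called above background where its detection p is under 0.05, and changes are knockout minus wild type from limma with Benjamini-Hochberg adjustment over 12040 tested probes. Probes had to be above background on at least 4 of the 8 arrays to be tested, which left 13 of the 17 probes and 8 of the 9 genes. Of the 13 probes, 10 passed at an adjusted p of 0.05, against 56.3% of all tested probes, and the same 10 had genotypes that did not overlap, against 51.5%. With each gene represented by its brightest tested probe, 5 of the 8 genes passed, of which 3 were higher and 2 lower in knockout. Of all 8302 tested genes, 57.6% passed, 26.9% higher and 30.7% lower, so the number of calls among the members is close to that of the array as a whole. Of the 8 tested members, 5 were called with a change of at least 2-fold, against 11.2% of all 8302 tested genes. The members were chosen with earlier results of these data known, so this contrast does not test whether they changed more than other genes. Il6, among the 5, passed the filter through its knockout arrays alone. Groups that did not overlap were found in the same 5 of 8 members and in 53.5% of all tested genes.

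**Figure D1:**
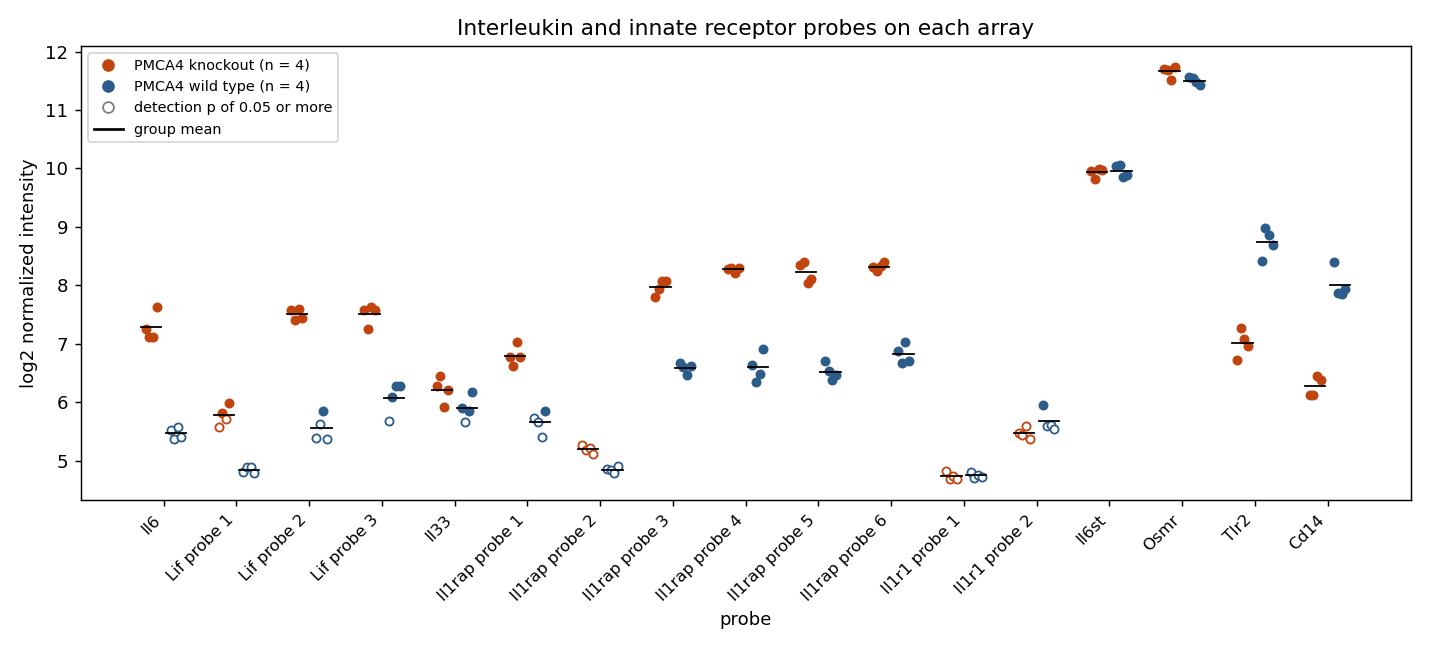
Log2 normalized intensity of all 17 probes of the 9 measured genes on each array, knockout left of wild type, with open circles where the detection p was 0.05 or more and bars for the group means. The knockout arrays lie above the wild-type arrays for Il6, the 2 tested Lif probes and the 5 tested Il1rap probes, and below them for Tlr2 and Cd14. Of all tested probes, 51.5% had genotypes that did not overlap. Lif probe 1 and Il1rap probe 2 also lie higher in knockout, but at or near background, and were not tested. Levels of different probes are not comparable.

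Across the array, 11697 to 11987 probes per sample were above background, and precision is limited by there being 4 arrays of each genotype. Atp2b4 itself had 1 probe of 3 above background, at 6.95 ± 0.27 in knockout and 6.89 ± 0.14 in wild type (SD, n = 4 each), with p = 0.7143 in an exact two-sided permutation test. Since the removed part of the gene is unknown, this probe does not check the genotype, and the direction of each difference rests on the labels. Of 10 smooth muscle markers with a probe, Acta2 and Tagln were above background on every array, whereas Myh11 and Mylk were above background on the 4 knockout arrays and on 0 of 4 wild-type arrays, and Cnn1 and Synpo2 on none of the 8. Of the 6 tested smooth muscle markers, 5 rose and 1 fell in knockout. Of all tested genes, 26.9% were called higher and 30.7% lower. Myh11 and Mylk passed the filter through their knockout arrays alone, so their place among the 5 already required a difference. The summed intensity of the 10 smooth muscle markers ran from 66770 to 68900 in knockout and from 35950 to 43660 in wild type. Acta2 alone gave 61198.7 to 63772.6 in knockout and 33418.3 to 40773.1 in wild type, so the sum describes mostly that probe. Adventitial fibroblasts are another cell type a carotid culture can hold. Of their 9 tested markers, 8 were higher in knockout, against 26.9% of all tested genes. Among the 8, Lum was above background on 0 of 4 wild-type arrays and passed the filter through its knockout arrays alone. The summed intensity of the 10 fibroblast markers with a probe ran from 53570 to 60250 in knockout and from 3861 to 4120 in wild type.

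Among the ligands, Il6 was above background in knockout cells only. It encodes interleukin-6, the founding cytokine of the gp130 family. Its probe gave 7.25, 7.12, 7.12 and 7.63 in knockout, against 5.53, 5.37, 5.57 and 5.40 in wild type. The deposited intensities behind these values were 124.4 to 186.1 in knockout and 20.8 to 28.1 in wild type. Every knockout array was above every wild-type array, and the knockout array of replicate 4 was the highest. Detection p ran from 0 to 0.00125 in knockout and from 0.0752 to 0.133 in wild type, so the wild-type level is a bound. Il6 was at least 2.78-fold higher in knockout (fitted log2 change 1.81, SE 0.11, limma adjusted p = 4.93e-07), where the bound sets each wild-type array at the higher of its own value and the lowest value above background. The fitted change was 1.28 with an offset of 50 in the background correction and 2.52 with no further background correction. The first of these is a smaller change than the bound. Because Il6 passed the filter through its knockout arrays alone, its place among the tested genes already required a difference.

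Lif, which encodes leukaemia inhibitory factor, was higher in knockout by both of its tested probes. Probe 2 gave 7.58, 7.41, 7.59 and 7.44 in knockout, against 5.39, 5.64, 5.86 and 5.38 in wild type, where 1 of 4 arrays was above background. Probe 3 gave 7.58, 7.26, 7.62 and 7.58 in knockout, against 5.68, 6.09, 6.27 and 6.28 in wild type, where 3 of 4 were above background. In both probes the groups did not overlap. The log2 change was 1.94 ± 0.11 for probe 2 (SE, limma adjusted p = 2.04e-07) and 1.43 ± 0.14 for probe 3 (SE, limma adjusted p = 1.16e-05), or 3.83-fold and 2.70-fold. The change of probe 2 was 1.40 with an offset of 50 and 2.59 with no further background correction. Probe 1 was annotated to another transcript of the gene and was above background on 2 knockout arrays and 0 wild-type arrays, so it was not tested. It gave 5.58 to 5.99 in knockout and 4.79 to 4.90 in wild type.

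Il33 encodes interleukin-33, a cytokine held in the nucleus and released by damaged cells. Its probe was close to background, at 6.28, 6.46, 5.91 and 6.21 in knockout, against 5.90, 5.67, 5.86 and 6.18 in wild type. The groups overlapped, since the lowest knockout array was below the highest wild-type array. It was above background on 4 knockout and 3 wild-type arrays, with detection p up to 0.0401 in knockout and up to 0.0627 in wild type. The log2 change of 0.31 (95% interval 0.021 to 0.61, not adjusted) did not pass over all probes (limma adjusted p = 0.0645). The difference passed without knockout replicate 3, at 0.41 (limma adjusted p = 0.0175), and without wild-type replicate 4, also at 0.41 (limma adjusted p = 0.0231), so whether it passed depended on single arrays.

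**Figure D2:**
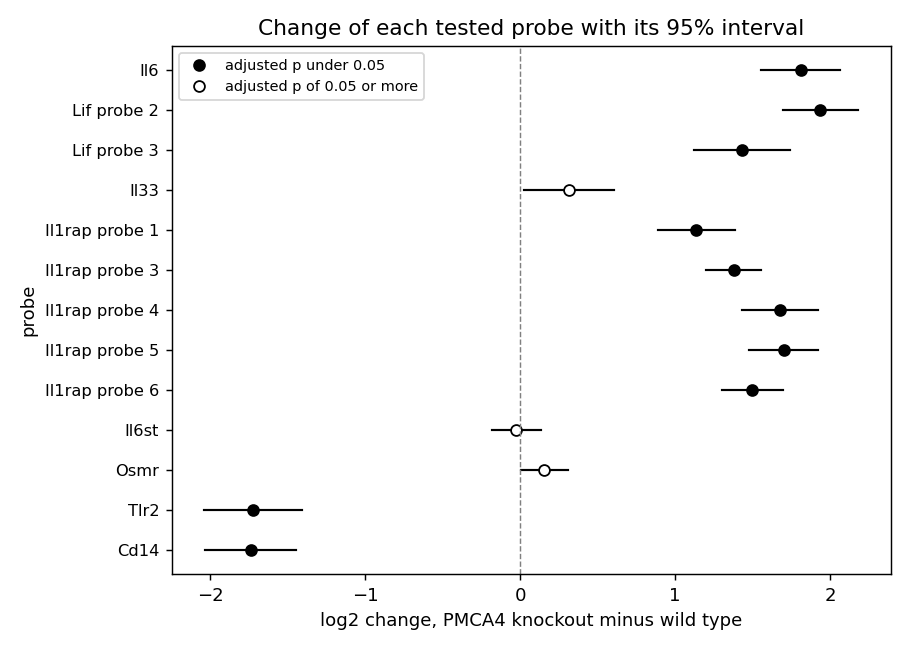
Log2 change, knockout minus wild type, of the 13 tested probes with its 95% interval, filled where the adjusted p was under 0.05. The 10 filled probes are those of Il6, Lif, Il1rap, Tlr2 and Cd14, with changes of 1.14 to 1.94 or of -1.72 and -1.74, and the 3 open ones are Il33, Il6st and Osmr. The Il6 change is the fitted one and rests on wild-type values at background.

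Il1rap, the accessory chain shared by the receptors of interleukin-1 and interleukin-33, rose in all 5 of its tested probes. Probe 6, the brightest, gave 8.31, 8.25, 8.33 and 8.41 in knockout, against 6.88, 6.67, 7.04 and 6.70 in wild type. Its log2 change was 1.50 ± 0.09 (SE, limma adjusted p = 2.93e-07), or 2.83-fold. Every knockout array of this probe was above every wild-type array. Probe 5 gave 8.35, 8.40, 8.04 and 8.11 in knockout, against 6.70, 6.54, 6.39 and 6.47 in wild type, a change of 1.70. Probe 4 changed by 1.68 and probe 3 by 1.38. Probe 1 changed by 1.14 and was the only tested one below background in most wild-type samples, with 1 of 4 above it. Probe 2, annotated to a different transcript of Il1rap from the other 5, was not above background on any array and has no tested change. It gave 5.11 to 5.27 in knockout and 4.80 to 4.92 in wild type.

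The size of the rise was compared between probes of the same gene. There were 10 pairs of Il1rap probes and 1 pair of Lif probes, and the log2 difference between the probes of a pair was compared between genotypes with an exact two-sided permutation test of 4 arrays against 4. By this exact permutation test 0 of the 11 pairs passed after Benjamini-Hochberg adjustment over them, and 3 had an unadjusted p of 0.02857, the smallest this design allows (exact permutation test, adjusted p = 0.1048). They were Il1rap probe 5 against probe 1, which differed in change by 0.56, Il1rap probe 1 against probe 4, which differed by -0.54, and Lif probe 2 against probe 3, which differed by 0.51. With 11 pairs, none could pass unless at least 7 were at the smallest p, so the test does not say whether the probes of a gene changed alike. Over the alternative settings the change of the tested Il1rap probes ran from 0.779, in probe 1 with an offset of 50, to 1.89, in probe 5 with no further background correction.

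Il1r1, the signalling receptor of interleukin-1, was at background. Its probe 1 was above background on none of the 8 arrays and its probe 2 on 1 wild-type array, so neither was tested. Probe 2 gave 5.48, 5.43, 5.59 and 5.36 in knockout, against 5.96, 5.60, 5.61 and 5.55 in wild type. The groups overlapped, with wild-type replicate 1 the highest and the only array above background. The rise of Il1rap was thus measured in cells in which these probes did not measure Il1r1 and in which Il1rl1 was not analysed.

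The signal-transducing chains of the interleukin-6 family did not pass the test. Il6st, which encodes gp130, gave 9.95, 9.83, 9.99 and 9.98 in knockout, against 10.04, 10.06, 9.86 and 9.89 in wild type. The log2 difference was -0.02 (95% interval -0.18 to 0.13, limma adjusted p = 0.79), and the groups overlapped. Osmr, the oncostatin M receptor chain, gave 11.69, 11.69, 11.51 and 11.74 in knockout, against 11.56, 11.55, 11.47 and 11.43 in wild type. Its difference was 0.16 (95% interval 0.0025 to 0.31, limma adjusted p = 0.0778), with knockout replicate 3 inside the wild-type range. Osmr passed without knockout replicate 3, at 0.20 (limma adjusted p = 0.0293). Both probes were above background on all 8 arrays with a detection p of 0, and both intervals lie below a 2-fold change.

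Tlr2 and Cd14 were lower in knockout by similar amounts. Tlr2 encodes a receptor of bacterial lipoproteins, and gave 6.73, 7.27, 7.09 and 6.96 in knockout, against 8.41, 8.98, 8.86 and 8.70 in wild type. Its log2 change was -1.72 ± 0.14 (SE, limma adjusted p = 3.4e-06), or 3.30-fold lower. Cd14, a surface protein that hands lipid ligands to Toll-like receptors, gave 6.12, 6.13, 6.45 and 6.39 in knockout, against 8.39, 7.87, 7.85 and 7.94 in wild type. Its log2 change was -1.74 ± 0.13 (SE, limma adjusted p = 1.88e-06). For both genes every knockout array was below every wild-type array, and all 8 arrays were above background. In the deposited intensities, Cd14 ran from 51.9 to 74.5 in knockout and from 200.5 to 343.6 in wild type, and Tlr2 from 88.1 to 141.7 in knockout and from 347.9 to 510.3 in wild type.

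Cd14 and Tlr2 are also genes of macrophages, and in bulk RNA fewer cells of a type and less RNA per cell cannot be told apart. Of 16 markers of macrophages and monocytes with a probe, 13 were above background on no array, among them Ptprc, Itgam, Adgre1, Tyrobp, Fcer1g, Laptm5 and C1qa. The only tested one, Lyz2, was above background on the 4 knockout and 0 of 4 wild-type arrays and at least 2.40-fold higher in knockout, and it passed the filter through its knockout arrays alone. Its probe may also measure the close copy Lyz1. The summed intensity of the 16 ran from 100.4 to 165 in knockout and from -28.8 to 58.8 in wild type, of which Lyz2 alone gave 113.6 to 123.3 in knockout and -8.6 to 7.1 in wild type, so the sum describes little beyond that probe. Of 9 mast cell markers, 7 were above background on no array, among them Cpa3, Mcpt4 and Fcer1a, but their summed intensity moved with Cd14 and Tlr2, from 1323 to 1715 in knockout and from 4116 to 5399 in wild type. Nearly all of that sum was Gata2, a transcription factor also used by other cell types, at 1295.1 to 1678.2 in knockout and 4043.5 to 5340.3 in wild type, which was 3.21-fold lower (limma adjusted p = 1.94e-07). Of 10 endothelial markers, 7 were above background on no array and 2 were tested. Esam was 1.44-fold lower in knockout (limma adjusted p = 0.0108), with groups that overlapped and 3 of 4 knockout arrays above background. Egfl7 did not pass, with a difference of 0.09 (limma adjusted p = 0.476). The summed intensity of the 10 endothelial markers ran from 301.7 to 410.2 in knockout and from 378 to 487.9 in wild type. Of 10 lymphocyte markers, 9 were above background on no array. Cd3e, the only tested one, was at least 1.87-fold higher in knockout (limma adjusted p = 1.24e-07). It was above background on the knockout arrays alone and passed the filter through them, so its place among the tested genes already required a difference. The part of these cell types in the differences of Cd14 and Tlr2 was not tested. The fibroblast markers described above moved with genotype in the direction of Il6, Lif and Il1rap, and their part in those differences was not tested.

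The other genes of these pathways were taken from lists of ligands and receptors, kinases, adaptors and targets. Of 11 other ligands and receptors of the interleukin-6 family with a probe, 5 were tested, of which 2 rose, 1 fell and 2 did not pass. This is 60% called, against 57.6% of all tested genes. The median log2 change was 0.12, against -0.02 over all tested genes. Il11, a gp130 cytokine like interleukin-6, gave 8.81, 8.76, 9.05 and 9.15 in knockout, against 7.03, 7.18, 7.01 and 7.23 in wild type. It rose 3.55-fold (log2 change 1.83 ± 0.10, SE, limma adjusted p = 1.63e-07). Ctf1, which encodes the gp130 cytokine cardiotrophin-1, moved the other way, 2.12-fold lower (limma adjusted p = 7.75e-06), and Il27ra, a receptor chain of interleukin-27, was 1.51-fold higher (limma adjusted p = 0.000118). Il6ra, the binding chain for interleukin-6, had a difference of -0.20 (limma adjusted p = 0.298). Osm and Lifr, partners of Osmr and Lif, were not above background on any array.

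In the list of JAK kinases, STAT factors and their inhibitors, 19 genes were tested, 9 rose, 4 fell and 6 did not pass, or 68.4% called against 57.6% of all genes, with a median of 0.05. Socs3, the inhibitor that binds gp130 and is induced by STAT3, gave 10.65, 10.25, 10.36 and 10.36 in knockout, against 9.74, 8.99, 8.55 and 8.77 in wild type. The groups did not overlap, and wild-type replicate 1 was the highest of its genotype. Socs3 rose 2.62-fold (limma adjusted p = 0.000399), and Socs2 rose 2.55-fold (limma adjusted p = 5.4e-07). Cish, another of the listed inhibitors, fell by 0.89 on the log2 scale (limma adjusted p = 0.000376). Stat5a, called in both of its probes, was 2.10-fold lower by the brighter one (limma adjusted p = 9.3e-06). Stat3 itself had a difference of -0.14 by its brightest probe (limma adjusted p = 0.153), and 1 of its 3 tested probes passed.

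Of 11 tested genes among known STAT3 targets and acute phase genes, 2 rose, 4 fell and 5 did not pass. The share called was 54.5%, against 57.6% of all tested genes. The median was -0.02, the same as over all genes. Pim1, a kinase gene induced by STAT3, was above background on 1 of 4 knockout arrays and 4 of 4 wild-type arrays, so the fitted difference of 2.89-fold lower rests on knockout values mostly at background (limma adjusted p = 0.00111). Lcn2, the iron-scavenging lipocalin of acute phase responses, was below background on all 4 knockout arrays and was at least 1.39-fold lower (limma adjusted p = 3.43e-05), and it passed the filter through its wild-type arrays alone, so its place among the 4 that fell already required a difference. Lbp, the lipopolysaccharide-binding protein, was 1.36-fold lower (limma adjusted p = 0.00579), and Hif1a, a subunit of the hypoxia-inducible factor, was 1.37-fold higher (limma adjusted p = 0.000422). Higher Il6, Lif, Il11 and Socs3 thus stood beside listed targets that were lower, higher or not called.

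**Figure D3:**
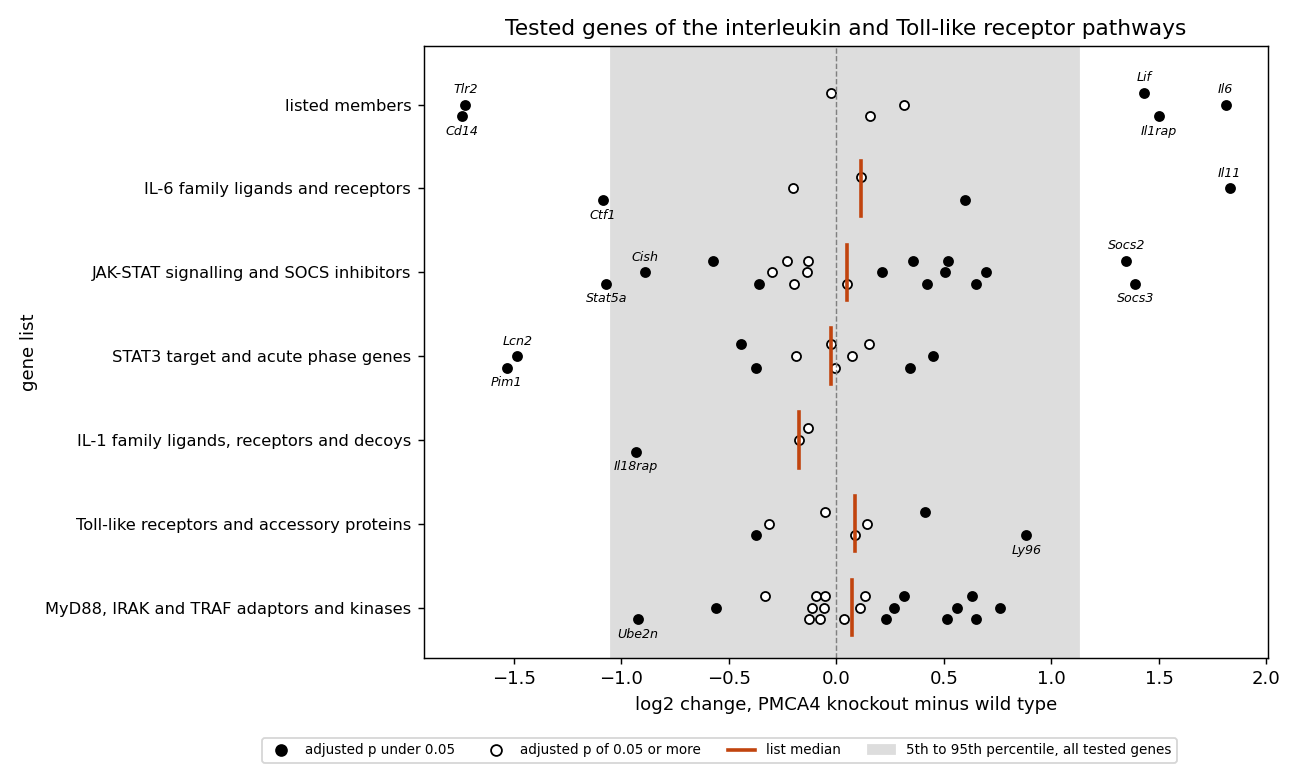
Log2 change, knockout minus wild type, of each tested gene by its brightest probe, for the listed members and for 6 lists of the same pathways, filled where the adjusted p was under 0.05, with the list median as a vertical bar and the range from the 5th to the 95th percentile of all tested genes (-1.05 to 1.13) shaded. The members Il6, Lif, Il1rap, Tlr2 and Cd14 and the listed Il11, Socs2, Socs3, Ctf1 and Stat5a lie outside the shaded range. Lcn2 and Pim1 are drawn outside it at fitted changes that rest on knockout values at or near background, and the bound for Lcn2 is 1.39-fold. Il6 is drawn at a fitted change that rests on wild-type values at background, and its bound is 2.78-fold.

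Of the other interleukin-1 family ligands, receptors and decoys, 14 had a probe and 3 were tested. Of these 3, 1 passed, or 33.3% against 57.6% of all tested genes, and it fell. That was Il18rap, the accessory chain of the interleukin-18 receptor, at 6.29, 6.38, 5.82 and 6.23 in knockout, against 7.17, 7.07, 7.14 and 7.06 in wild type, or 1.91-fold lower (limma adjusted p = 5.81e-05). The accessory chains Il1rap and Il18rap thus differed in opposite directions. The ligands Il1a and Il1b and the decoy receptor Il1r2 were not above background on any array, and Il18 had a difference of -0.17 (limma adjusted p = 0.131).

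Among the other Toll-like receptors and their accessory proteins, 18 had a probe, 7 were tested, 2 rose, 1 fell and 4 did not pass. The share called was 42.9%, against 57.6% of all tested genes. Ly96, also called MD-2, the co-receptor that binds lipopolysaccharide beside Tlr4, gave 9.86, 9.90, 10.03 and 9.92 in knockout, against 8.88, 8.97, 9.03 and 9.29 in wild type, and rose 1.85-fold (limma adjusted p = 1.72e-05). Ly96 and Cd14, both accessory proteins of Tlr4, therefore differed in opposite directions, and Tlr4 itself had a difference of 0.14 (limma adjusted p = 0.148). Unc93b1, which carries Toll-like receptors to endosomes, was 1.33-fold higher by its brightest probe but was called in 1 of 2 probes (limma adjusted p = 0.00122). Cnpy3, a chaperone of Toll-like receptors, was 1.30-fold lower (limma adjusted p = 0.00822). Tlr1, one of the partners of Tlr2, was not above background on any array, and Tlr6, the other, had a difference of 0.09 (limma adjusted p = 0.439).

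In the shared cascade of MyD88, IRAK and TRAF proteins, 20 genes were tested, 8 rose, 2 fell and 10 did not pass. The median was 0.08, and 50% were called, against 57.6% of all tested genes. Map3k8, a kinase downstream of Toll-like receptors, was 1.70-fold higher (limma adjusted p = 0.00498). Irak3, an inhibitory member of the IRAK family, was 1.55-fold higher (limma adjusted p = 0.000148). Traf6, the ubiquitin ligase of the cascade, was 1.57-fold higher by its brightest probe but was called in 1 of 3 probes (limma adjusted p = 9.88e-05). Ube2n, the ubiquitin-conjugating enzyme that works with Traf6, was called in 1 of 2 probes, the brighter one, where it was 1.89-fold lower (limma adjusted p = 2.57e-06). Myd88, the adaptor common to interleukin-1 receptors and Tlr2, had a difference of 0.04 (limma adjusted p = 0.569).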

How the data were processed

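Expression was measured on Illumina mouse bead arrays in 4 PMCA4 knockout and 4 wild-type samples, grouped by the genotype in their labels. The authors deposited one intensity per probe and array, not normalized between arrays; 28.42% to 29.69% of these were below 0, so background had been subtracted. The deposited detection p-value of each probe and array says how far it stood above background, per the file headers. The authors also deposited a log2 table whose columns share one distribution, as after quantile normalization; it served as an alternative. For both tables the software was not given in the sources used here.

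Intensities were background corrected with background inferred from the detection p-values, offset by 16, quantile normalized and set on a log2 scale by the neqc function (limma 3.58.1, R 4.3.3). Probes with detection p under 0.05 on at least 4 of 8 arrays were fitted with lmFit and eBayes, with Benjamini-Hochberg adjustment over the 12040 of them. The fit was tested on simulated data. Genes are named from the platform annotation, which gave 1 symbol for 23978 probes, several for 0 and none for 1719. RefSeq promoter windows were searched in Python 3.11.15, for 250 bases before each start. The members and gene lists were chosen with earlier results of these data known. From each pathway list up to 4 genes past the threshold with the largest absolute change are named, and the genes named as not passing or not above background were chosen after their values were seen. Alternatives covered background correction, normalization, the filter, the variance model, probe averaging, a replicate block and each array left out.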

Additional observations from a re-analysis of the deposited data

Results flagged for a closer look

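Within 34 groups of 4 arrays, 1 for each genotype of each of the 17 probes, 3 held an array far from the others by Dixon's criterion for 4 values, where chance gives about 1 in 20. In Lif probe 3, knockout replicate 2 was at 7.26, with the other knockout arrays between 7.58 and 7.62 (gap over range 0.888). In Cd14, wild-type replicate 1 was at 8.39, with the other wild-type arrays between 7.85 and 7.94 (0.847). In Il1r1 probe 2, wild-type replicate 1 was at 5.96, with the others between 5.55 and 5.61 (0.857), and it was the only array on which that probe was above background.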

How the results depend on the processing

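The 10 member probes that passed kept their direction and passed under all 18 alternatives each. Between 5 and 7 member genes passed, 7 without knockout replicate 3, and 6223 to 7094 of all probes, against 6777. Osmr also passed under cyclic loess, at 0.225, and with an intensity trend and robust spread, at 0.157. The sign of the Il6st difference turned positive without knockout replicate 2 (0.0126), wild-type replicate 1 (0.000963) or wild-type replicate 2 (0.009), and over single arrays left out it ran from -0.0581 to 0.0126, never past the threshold. The Atp2b4 difference ran from -0.0158 without knockout replicate 1 to 0.189 without knockout replicate 3, never past the threshold. In the interleukin-1 family list, 1 gene passed, 3 with no filter on dim probes, which tests more genes, and 1 to 2 with single arrays left out, 2 without knockout replicate 4; the cause was not tested. Same-numbered arrays did not deviate together (correlations of deviations of 0.087, 0.023, -0.029 and 0.01), which shows no pairing by number. The values were taken after quantile normalization, so they cannot exclude that same-numbered samples were prepared or run together. With the replicate number as a block, 6541 probes, 10 member probes and 5 member genes passed, and Atp2b4 differed by 0.0583. A slide block was not run, since the headers give no slides. Il6, Il33, the Lif probes and Il1rap probe 1 lie near background in wild type, and Pim1 and Lcn2 in knockout, where the size of a change depends most on the background correction.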
